A study of Mus musculus with 6 samples.

Results

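The mitosis genes described here are a set of 44 mouse genes whose products carry a cell from mitotic entry through chromosome segregation to cytokinesis. The members were chosen by name from what they are known to do, but with earlier results of these data known. Each was read from the probes that the array design names for it, averaged per gene on the log2 scale. Of the 44 members, 42 had a named probe, on 44 probes in all, and 34 were detected on all 6 arrays, against 19321 named genes and 13538 detected on all arrays in the whole series. Ccnb1, a partner cyclin of the mitotic kinase, and Kif2c, a kinesin that takes tubulin off microtubule ends, had no named probe and are not analysed here. The remaining 42 members are described by role, each on its own scale, because signals of different probes cannot be set against each other.

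A cell in mitosis depends on the cyclin-dependent kinase CDK1 and its A-type and B-type cyclins, on Aurora and Polo-like kinases that build the spindle, and on a checkpoint that holds back the anaphase-promoting complex (APC/C) until all chromosomes are attached. Most genes of these proteins are transcribed in late S and G2 phase and are nearly silent in resting cells, so their RNA in a T cell population is widely read as a sign of cells in cycle. Intraepithelial lymphocytes (IEL) of the small intestine are mostly antigen-experienced T cells that lie between epithelial cells, whereas the CD4+ T cells of the spleen (SP) of a young mouse are largely naive and resting. In RNA of whole populations, fewer cells in cycle and less RNA per cycling cell cannot be told apart.

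RNA of 6 T cell sorts from male C57BL/6 mice was hybridised with 1 dye, Cy5, to 6 oligonucleotide arrays, 1 array per group. The groups were CD3+CD4+ T cells of IEL and of SP from young mice of 5 weeks and old mice of 89 weeks, and a pair of further sorts from old IEL, labelled cd27cd28 and others, whose gates the labels do not give. The labels state a purity above 98% for the sorts and cells of 4 to 6 mice behind each group, without saying whether these were pooled, and the study's methods give a slightly younger age for the old mice. The arrays hold 23473 probes, and the share detected ran from 72.2% to 85.1%. A single array stands for each group, so differences carry no SD and no test, and spots of 2 positive controls, 24 each per array, give spot error alone, with a log2 SD of 0.127 for a signal. A gene was called higher or lower where it differed by more than 2-fold and its brighter signal was over 100, in units where the median of the detected probes of each array is 25. All 6 T cell markers with a probe, Cd3d and Cd4 among them, were detected on every array. The summed signal of 13 epithelial markers was 844 on the young IEL array, 501 on the old IEL CD4+ array, 697 on cd27cd28, 2556 on others, and between 366 and 393 on the SP arrays. A few bright probes carried much of it. Reg3b gave 446 in young IEL and 1052 in others, and Olfm4 gave 172 to 262 on every array, SP among them. The median marker signal was 21.8 in young IEL and in old IEL CD4+, 28.7 in cd27cd28, 93.3 in others, and 17.1 and 19.6 in young and old SP. Cd8b1, the CD8 beta chain and the single gene of 5 CD8 alpha-beta and gamma-delta T cell markers with a probe, stood at 643 in young IEL, 231 in old IEL CD4+, 465 in young SP, 321 in old SP, 609.7 in cd27cd28 and 554 in others.

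The first comparison asked how IEL CD4+ T cells of old mice differ from those of young mice. The mitosis genes were lower in old IEL CD4+ T cells: of 20 members with a signal over 100 on either array, 17 were called lower and 0 higher, where 3.85% of all 4082 such genes were called lower and 2.47% higher. Without the signal minimum, 32 of 37 members detected on both arrays were over 2-fold lower, against 3.95% of 13753 genes. All 37 were below 0, from Hmmr at -3.69 to Kif23 at -0.38, with a median log2 difference of -2.25 where the median of all genes was -0.09. By role, the medians ran from -2.83 for the kinesins Kif11, Kif4, Kif20a and Kif22 and -2.81 for spindle assembly to -1.19 for cytokinesis and -0.84 for the centromere genes. The 3 members with enough signal that were not called were Cenpa, Cenpf and Smc4. The signs of the 37 were the same after quantile normalization and after scaling to the 75th percentile, and turned for 3 of them, Aurkb, Kif23 and Racgap1, with a normexp correction of the local background. That correction also adds an offset of 50 to every spot before rescaling, which draws log2 differences toward 0. The effect of the offset was not separated from that of the background. The signal minimum of 100 was applied after the rescaling. Under the whole correction the median was -0.76, with 13 of the 37 over 2-fold lower and 8 members called lower of 8 with enough signal. Under it, 456 of 1490 genes with enough signal were called lower and 133 higher. Of all genes called in this comparison, 60.9% were lower, 50.2% after quantile normalization, 49.8% with the 75th percentile and 77.4% with normexp. Among the markers of other cell types, Cd8b1 stood at a log2 difference of -1.48. Of 12 epithelial markers detected on both arrays, 3 fell short of the young signal by over 2-fold and 2 exceeded it by as much, and their median was -0.01. Reg3b, an antimicrobial lectin of gut epithelium, went from 446 to 15.1, while Fabp2, a fatty acid-binding protein of enterocytes, went from 10.9 to 74.8 and Cdh1, which encodes E-cadherin, from 20.3 to 61.1. The part of these cells in the result was not tested.

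**Figure D1:**
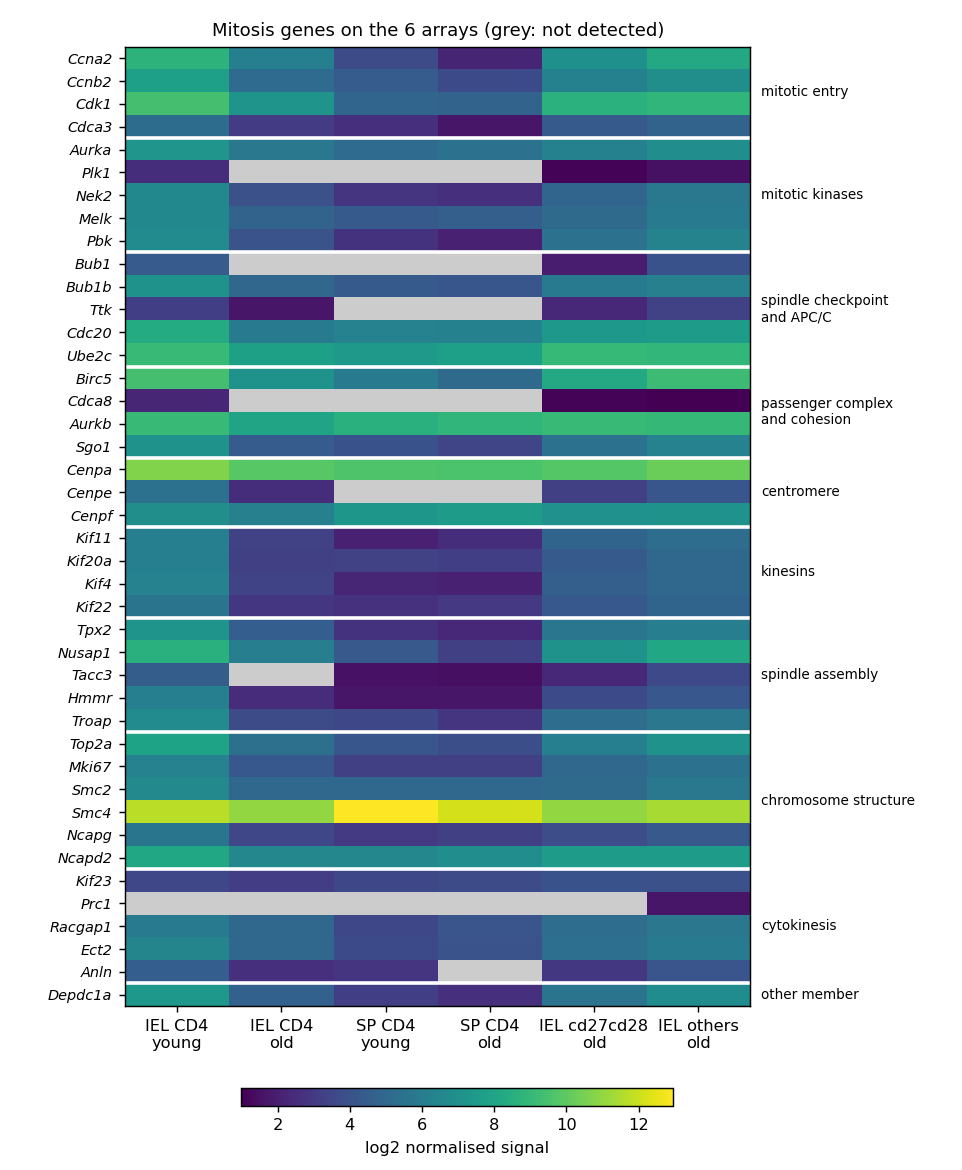
Colour gives the log2 normalised signal of each of the 42 mitosis genes with a probe (vertical axis, ordered by role) on each of the 6 arrays (horizontal axis), with grey for not detected. Colours are to be read along a row, where 36 of the 42 genes had their highest signal in young IEL CD4+ T cells.

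Promoter windows were read for the members because these genes moved together, and the table of RefSeq promoters used here (GRCm38.p6) held a window from 250 bases before to 50 bases after the start for 38 of the 44. Windows of Ccna2, Pbk, Smc4, Kif20a, Tpx2 and Aurkb were not analysed here. Many mitotic promoters are known to hold a cell cycle genes homology region (CHR), with the letters TTTGAA, through which DREAM and B-MYB complexes act, beside CCAAT boxes bound by NF-Y. Both were searched on both strands, as TTTGAA or TTCAAA and as CCAAT or ATTGG, and the pair can share an end base. TTTGAA was found in 28 of 38 members, 73.7%, against 20.2% of 27025 genes with such windows, and CCAAT in 32, 84.2%, against 41.1%. Both were present in 26 members, 68.4%, against 7.97% of genes. The letters TTCGAA and TTTAAA were also searched and were found in 10.5% and 21.1% of the members, against 1.80% and 14.9% of genes. Of the 28 members with TTTGAA, 25 had a match within 50 bases of the start, and the median first base of all matches lay 10 bases before it. Positions were not read for all genes. Any match after the start lies within 50 bases of it, because the window ends there.

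The following windows, from 250 bases before to 20 bases after the start and read 5′ to 3′ on the strand of the gene, show these elements in genes at both ends of the range of age differences, with the letters of both elements in capitals, on either strand. Ccnb2 (chr9:70421535-70421804, minus strand), Top2a (chr11:99024170-99024439, minus strand), Kif11 (chr19:37376132-37376401, plus strand) and Hmmr (chr11:40733418-40733687, minus strand) were over 2-fold lower in old IEL, while Cenpf (chr1:189688067-189688336, minus strand) and Kif23 (chr9:61946780-61947049, minus strand) were not. They were picked after the signals and the matches had been seen.
Ccnb2: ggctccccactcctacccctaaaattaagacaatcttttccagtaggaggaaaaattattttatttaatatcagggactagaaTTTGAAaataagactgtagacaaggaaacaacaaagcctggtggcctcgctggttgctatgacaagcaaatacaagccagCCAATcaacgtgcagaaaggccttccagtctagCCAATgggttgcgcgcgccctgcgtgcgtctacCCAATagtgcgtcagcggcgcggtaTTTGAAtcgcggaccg
Top2a: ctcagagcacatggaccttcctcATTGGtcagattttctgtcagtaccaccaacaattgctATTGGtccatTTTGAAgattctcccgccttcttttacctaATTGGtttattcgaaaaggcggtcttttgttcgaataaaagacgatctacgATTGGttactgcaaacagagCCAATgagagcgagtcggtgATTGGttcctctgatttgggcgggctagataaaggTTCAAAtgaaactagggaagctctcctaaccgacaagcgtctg
Kif11: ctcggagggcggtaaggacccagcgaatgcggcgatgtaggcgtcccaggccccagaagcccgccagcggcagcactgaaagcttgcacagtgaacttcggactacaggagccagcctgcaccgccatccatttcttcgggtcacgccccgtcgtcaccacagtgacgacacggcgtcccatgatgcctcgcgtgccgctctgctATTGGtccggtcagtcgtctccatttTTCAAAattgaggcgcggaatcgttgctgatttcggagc
Hmmr: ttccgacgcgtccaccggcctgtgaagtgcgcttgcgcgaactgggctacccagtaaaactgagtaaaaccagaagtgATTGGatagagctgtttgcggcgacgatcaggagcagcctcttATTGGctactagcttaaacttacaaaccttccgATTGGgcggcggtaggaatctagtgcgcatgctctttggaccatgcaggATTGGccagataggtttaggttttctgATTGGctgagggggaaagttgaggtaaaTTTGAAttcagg
Cenpf: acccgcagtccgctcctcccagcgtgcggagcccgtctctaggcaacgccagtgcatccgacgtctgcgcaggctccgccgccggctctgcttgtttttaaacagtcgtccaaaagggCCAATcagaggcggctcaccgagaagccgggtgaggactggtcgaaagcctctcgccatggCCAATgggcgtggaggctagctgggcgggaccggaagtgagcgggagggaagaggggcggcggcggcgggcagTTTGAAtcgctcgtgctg
Kif23: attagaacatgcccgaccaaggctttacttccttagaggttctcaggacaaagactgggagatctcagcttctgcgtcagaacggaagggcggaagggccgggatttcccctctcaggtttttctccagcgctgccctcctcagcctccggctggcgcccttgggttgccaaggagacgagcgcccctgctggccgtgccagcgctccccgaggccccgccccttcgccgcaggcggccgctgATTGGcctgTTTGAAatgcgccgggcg
Ccnb2 holds 3 CCAAT boxes and a CHR whose first base is 5 bases after the start, Top2a holds 6 CCAAT boxes, and Hmmr holds 5. Both elements are also in the windows of Cenpf and Kif23. Among members with a window and a measured difference, 19 of the 27 that were over 2-fold lower and 4 of the 4 that were not held both elements. With only 4 genes in the second group, the groups cannot be compared. A match describes the letters and is no evidence of binding.

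Of the genes of mitotic entry, 3 of 3 with enough signal were called lower in old IEL. Ccna2, the A-type cyclin of S and G2 phase, had a signal of 422 in young IEL, 71.6 in old IEL CD4+, 13.4 in young SP, 4.68 in old SP, 126 in cd27cd28 and 299 in others. Cdk1, the kinase that drives entry into mitosis, stood at 693 in young IEL and at 146 in old IEL CD4+, with 29.6 and 28.1 in young and old SP, 398 in cd27cd28 and 473 in others. Ccnb2, a B-type partner of CDK1, was measured at 213, 35.5, 22.3, 12.8, 75.8 and 118 in the same order. For all 3 genes every IEL array, old or young, was brighter than both SP arrays, and young IEL was the brightest. Their log2 differences between old and young IEL were -2.56 for Ccna2, -2.25 for Cdk1 and -2.59 for Ccnb2, all called lower. Cdca3, a substrate adaptor that triggers mitotic entry, followed the same order at lower signals, 37.3 in young IEL, 8.39 in old IEL CD4+, 6.19 and 3.21 in young and old SP, 20.4 in cd27cd28 and 28.1 in others.

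Among the mitotic kinases, Aurka, the Aurora kinase of centrosomes and spindle poles, had a signal of 149 in young IEL, 55.5 in old IEL CD4+, 36.1 in young SP, 43.2 in old SP, 76.9 in cd27cd28 and 117 in others. Pbk, a mitotic kinase also known as TOPK, was at 108, 16.5, 6.54, 4.26, 44.1 and 82.0 on the same arrays. Both were called lower in old IEL, at -1.42 and -2.70. Nek2, which splits the centrosomes, went from 95.4 in young to 15.5 in old IEL CD4+, with 6.92 and 6.18 in SP, 30.0 in cd27cd28 and 54.6 in others. Melk, a kinase abundant in dividing cells, went from 93.8 to 27.4, with 20.8 and 24 in SP, 35.0 in cd27cd28 and 57.8 in others. These last 2 genes were over 2-fold lower in old IEL but under the signal minimum on all arrays. Plk1, the Polo-like kinase needed at most steps of mitosis, was near the detection limit, with 5.84 in young IEL, 2.17 in cd27cd28 and 2.83 in others and no detection on the other arrays, which puts it at least 2.34-fold lower in old than in young IEL CD4+ T cells.

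Genes of the spindle checkpoint and of the APC/C activators were lower in old IEL as well. Cdc20, the APC/C activator that the checkpoint restrains, had a signal of 324 in young IEL, 59.7 in old IEL CD4+, 78.8 in young SP, 76.0 in old SP, 163 in cd27cd28 and 188 in others. Old IEL CD4+ was thus the dimmest of the 6 arrays for Cdc20, below both SP arrays. Bub1b, which encodes the checkpoint protein BubR1, stood at 141, 30.7, 20.6, 18.1, 57.6 and 73.4 in the same order. Ube2c, the ubiquitin-conjugating enzyme of the APC/C, stood at 548, 221, 169, 211, 510.3 and 477. The log2 differences of old against young IEL were -2.44 for Cdc20, -2.20 for Bub1b and -1.31 for Ube2c, all called lower. Bub1, the checkpoint kinase, was detected in young IEL at 21.4, in cd27cd28 at 3.76 and in others at 16, and was not detected on the other 3 arrays, at least 8.57-fold lower in old than in young IEL. Ttk, the checkpoint kinase MPS1, was at 9.06 in young IEL, 3.24 in old IEL CD4+, 5.12 in cd27cd28 and 9.85 in others, and was not detected in SP.

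The chromosomal passenger complex corrects wrong attachments at the centromere, and shugoshin protects cohesion there. Birc5, the survivin subunit, had a signal of 689.7 in young IEL, 139 in old IEL CD4+, 61.2 in young SP, 34.9 in old SP, 299 in cd27cd28 and 587 in others, a log2 difference of -2.32 with age in IEL. Sgo1, the shugoshin, was at 137, 22.2, 15.9, 11.1, 45.6 and 77.3, a difference of -2.63. Aurkb, the kinase of the complex, did not share this order, with 523 in young IEL, 252 in old IEL CD4+, 381 in young SP, 463 in old SP, 554 in cd27cd28 and 502 in others. Old IEL CD4+ was the dimmest array for Aurkb and was called lower than young IEL at -1.05, just past the threshold, a value that turned to 0.30 with the normexp correction. Cdca8, the borealin subunit, was at 4.83 in young IEL, 2.17 in cd27cd28 and 1.97 in others and was not detected elsewhere, at least 1.94-fold lower in old than in young IEL.

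The centromere genes held a pair of the exceptions. Cenpa, the histone H3 variant that marks centromeres, had a signal of 1651 in young IEL, 922 in old IEL CD4+, 819.9 in young SP, 768 in old SP, 879 in cd27cd28 and 1244 in others, and at -0.84 its age difference in IEL was under 2-fold. Cenpf, a kinetochore and nuclear matrix protein, was at 119.8, 74.2, 161, 194, 132 and 139, with its highest signal in old SP and an age difference of -0.69 in IEL. Cenpe, the kinetochore kinesin that carries chromosomes to the metaphase plate, went with the other members, at 43.1 in young IEL, 5.75 in old IEL CD4+, 9.44 in cd27cd28 and 17.9 in others, with no detection in SP.

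The kinesins Kif11, Kif4, Kif20a and Kif22 were all under the signal minimum, so none could be called, and each of these 4 was over 2-fold lower in old IEL, between -2.89 and -2.74. Kif23 and Cenpe, also mitotic kinesins, are given with cytokinesis and the centromere. Kif11, the motor Eg5 that pushes spindle poles apart, had a signal of 71.8 in young IEL, 10.2 in old IEL CD4+, 4.17 in young SP, 5.84 in old SP, 28.2 in cd27cd28 and 38.4 in others. Kif4, a chromosome-bound kinesin, was at 78.0, 10.9, 4.85, 4.26, 24.6 and 32.1 in the same order. Kif20a, a motor of the central spindle and cytokinesis, stood at 71.3, 9.62, 9.91, 9.21, 20.6 and 32.7, and Kif22, a motor that moves chromosome arms, at 48.3, 7.25, 6.38, 7.83, 19.1 and 28.4. For Kif20a and Kif22 the old IEL CD4+ array was no brighter than the brighter of the SP arrays, while the other IEL arrays were well above it.

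Spindle assembly factors included the member with the widest age difference. Hmmr, a microtubule-binding protein of spindle poles also called RHAMM, had a signal of 72.0 in young IEL, 5.56 in old IEL CD4+, 3.22 in young SP, 3.28 in old SP, 12.7 in cd27cd28 and 18.8 in others, which is 12.9-fold lower with age in IEL at signals under the minimum. Nusap1, which bundles spindle microtubules, was at 378, 69.3, 20.1, 9.43, 141 and 289, a log2 difference of -2.45 with age in IEL. Tpx2, the activator of Aurora A, was at 143, 23.5, 6.70, 4.95, 50.8 and 68.6, a difference of -2.61. Troap, a microtubule-associated protein also called tastin, was at 109, 13.5, 11.8, 6.87, 38.6 and 53.6, a difference of -3.00, the widest among the called members. Tacc3, which stabilises spindle fibres, was at 22.8 in young IEL, 2.99 and 2.79 in young and old SP, 5.05 in cd27cd28 and 12.3 in others, and was not detected in old IEL CD4+, at least 9.13-fold lower than in young IEL.

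Among the genes of chromosome structure, Top2a, the topoisomerase that untangles sister chromatids, had a signal of 242 in young IEL, 42.3 in old IEL CD4+, 18.0 in young SP, 14.4 in old SP, 71.8 in cd27cd28 and 140.5 in others, a difference of -2.52 with age in IEL. Mki67, the gene of the proliferation antigen Ki-67, was at 78.7, 19.6, 9.59, 9.46, 32.6 and 44.4, a difference of -2.01 under the signal minimum. Ncapd2, a condensin subunit, was at 277, 92.3, 92.6, 114, 191 and 193, and was called lower at -1.59. Smc4, a core subunit of condensins, ran against the other members, with 3419 in young IEL, 2042 in old IEL CD4+, 7967 in young SP, 4645 in old SP, 2098 in cd27cd28 and 2712 in others, so that both SP arrays exceeded every IEL array. Smc2, its partner, had a pair of probes. The brighter one read 420.4 in young IEL, 209 in old IEL CD4+, 156 in young SP, 179 in old SP, 149 in cd27cd28 and 369 in others. The dimmer one read 22.8, 4.91, 6.87, 6.12, 7.99 and 7.87, so the probes differed in direction for age in SP, between cd27cd28 and others, between cd27cd28 and old IEL CD4+, and between old IEL and old SP. Ncapg, a further condensin subunit, also had a pair of probes, of which one read 48.9 in young IEL, 7.94 in old IEL CD4+, 6.55 in cd27cd28 and 10 in others and was not detected in SP. The other read 51.9, 16.3, 8.16, 9.59, 29.8 and 39.6. The probes of Ncapg differed in direction between cd27cd28 and old IEL CD4+, and its level in SP rests on the second probe alone.

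The genes of cytokinesis were all under the signal minimum, with a median of -1.19 over 4 genes in IEL with age. Ect2, the exchange factor that activates RhoA at the cleavage furrow, had a signal of 85.6 in young IEL, 32.0 in old IEL CD4+, 12.6 in young SP, 16.5 in old SP, 41.4 in cd27cd28 and 62.4 in others. Racgap1, the centralspindlin subunit that recruits it, was at 63.3, 32.6, 12, 17.7, 38.8 and 52.6. Kif23, the centralspindlin motor, was nearly level at 11.7, 9.0, 11.9, 13.2, 16.1 and 15.3, with its highest signal in cd27cd28. Anln, an actin-binding protein of the contractile ring, was at 23.8 in young IEL, 6.15 in old IEL CD4+, 6.97 in young SP, 7.57 in cd27cd28 and 17.7 in others, and was not detected in old SP. Prc1, which bundles microtubules of the spindle midzone, was detected in others alone, at 3.28, so its probe carried almost no signal. Depdc1a, a gene of dividing cells given no role group here, was at 164 in young IEL, 25.7 in old IEL CD4+, 9.27 in young SP, 6.23 in old SP, 48.6 in cd27cd28 and 111 in others, and was called lower with age in IEL at -2.67.

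Age in the spleen gave few differences in the same genes. Of 6 members with a signal over 100 on either SP array, 0 were called lower, where 0.760% of 4476 genes were, and 0 were called higher, where 4.31% were. A count of 0 among 6 is near the share of all genes. Most members were dim in young SP, where 5 were over 100, so few could be called lower. The median signal there was 14.6 over the 34 members detected on all arrays. The median log2 difference of 35 members was -0.09, against 0.07 for all genes, with 21 members below 0 and 14 above. Without the signal minimum, 2 members detected on both arrays were over 2-fold lower, against 1.19% of 15052 genes, namely Ccna2, from 13.4 to 4.68, and Nusap1, from 20.1 to 9.43. Anln, detected in young SP alone, was at least 3.27-fold lower in old SP. The normexp correction changed 15 of the 35 signs. Smc4 had its highest signal in young SP and stood at -0.78 in old against young SP, beside -0.74 in IEL.

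The difference of these age differences, IEL minus SP, was measured for 34 members and shares no array between its arms. It was below -1 for 30 of them, against 10.6% of 13553 genes, with a median of -1.99 where all genes had -0.18. It ran from -3.72 for Hmmr to 0.03 for Smc4, and the other members above -1 were Cenpa at -0.75, Cenpf at -0.96 and Kif23 at -0.52. After normexp correction, a setting applied to this difference once the data had been seen, 12 of 34 were below -1, against 8.12% of genes, at a median of -0.82. With 1 array per group this difference has no test.

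The next comparison set IEL against SP CD4+ T cells in young mice, which shares its young IEL array with the age comparison in IEL. Of 20 members with a signal over 100, 17 were called higher in young IEL, where 8.05% of 4458 genes were, and 1, Smc4 at -1.22, was called lower, where 9.62% were. The median log2 difference of 36 members was 2.88, against -0.28 for all genes, and 33 of the 36 were above 0. Without the minimum, 32 of 36 were over 2-fold higher, against 5.42% of genes, and 1 was lower, against 11.1%. Ccna2 had the widest difference at 4.98, or 31.6-fold, ahead of Cdk1 at 4.55 and Hmmr at 4.48. Members with a signal in young IEL and none in young SP gave bounds alone, with Cenpe at least 17.6-fold and Bub1 at least 8.74-fold higher in IEL. Aurkb at 0.46 and Cenpf at -0.43 were the other members over 100 that were not called. Of all genes called, 54.4% were lower in IEL, 42.9% after quantile normalization and 39.7% with the 75th percentile. The normexp correction left 6 of 8 members called higher and 0 lower, where 500 and 174 of 1537 genes were, at a median of 0.81.

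In old mice the distance between IEL and SP was shorter. Of 8 members with a signal over 100, Cdk1 at 2.38 and Birc5 at 1.99 were called higher in old IEL CD4+ T cells, 2 of 8 where 4.65% of 4513 genes were, and Cenpf at -1.38 and Smc4 at -1.19 were called lower, 2 of 8 where 12.7% were. The median of 34 members was 0.85, with all genes at -0.46, so relative to all genes the members stood 1.30 higher. Without the signal minimum 13 of 34 were over 2-fold higher, led by Ccna2 at 3.94, Nusap1 at 2.88 and Tpx2 at 2.24, against 3.20% of genes, and 2 were lower, against 15.5%. Of all genes called, 73.2% were lower in IEL, 46.8% after quantile normalization and 41.3% with the 75th percentile, and 4 members changed sign under each of these. With the normexp correction 12 of the 34 signs changed and the median was 0.024, only 0.068 above all genes. Of 2 members with enough signal, 0 were then called higher, where 242 of 1304 genes were, and 2 lower, where 255 were.

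**Figure D2:**
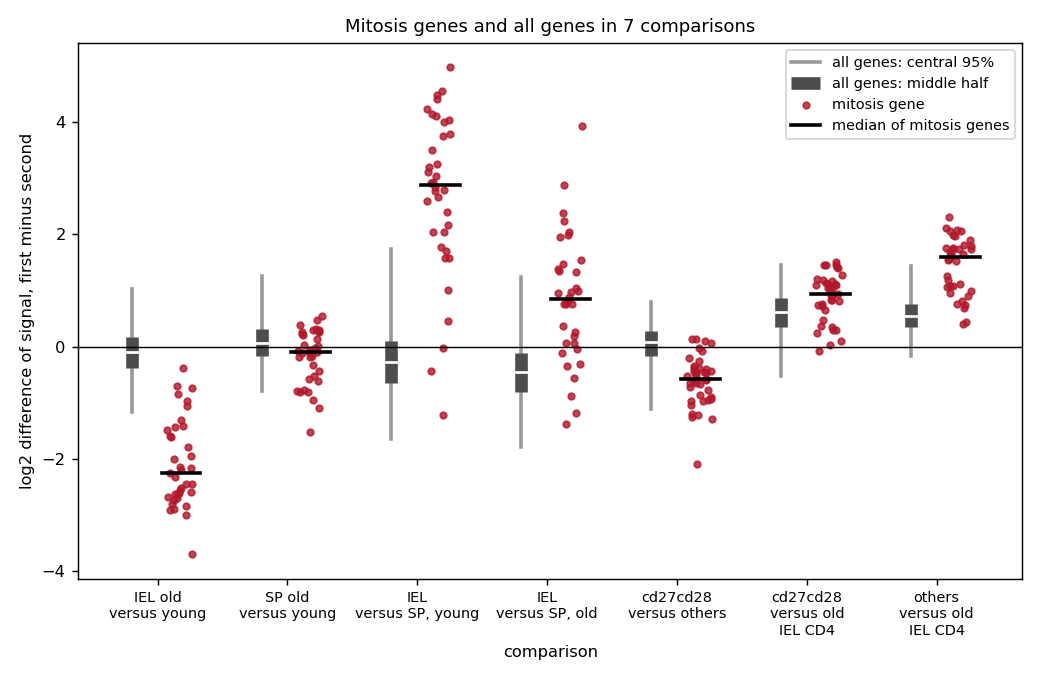
The vertical axis gives the log2 difference of signal for each of the 7 comparisons on the horizontal axis. Red points are mitosis genes with their median as a black bar, and grey bars give the central range of all genes and their quartiles with the median in white; the members stand farthest from all genes at a median of -2.25 in IEL with age and of 2.88 in young IEL against SP.

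The further sorts of old IEL stood between young IEL and old IEL CD4+ T cells. The median gene was brighter on these arrays than on the old IEL CD4+ array. The log2 difference was 0.62 for cd27cd28 and 0.54 for others. Counts and values of single genes include that shift, unless they are said to be relative to all genes. In others, 11 of 15 members with a signal over 100 were called higher than in old IEL CD4+, where 3.23% of 4484 genes were, and 0 were called lower, where 0.134% were. The median over 37 members was 1.06 above that of all genes, and without the minimum 28 of them were over 2-fold higher, against 10.9% of genes. Relative to the median of all genes, 21 of them were over 2-fold higher, against 1.74% of genes. Pbk had the widest difference at 2.31, followed by Depdc1a at 2.11, Birc5 at 2.08, Ccna2 at 2.06 and Nusap1 at 2.06. With the normexp correction 1 of 4 members was called higher, where 272 of 1359 genes were, and the median was 0.25. It changed 6 of the 37 signs, those of the called members Ccnb2 at -0.035, Birc5 at -0.11 and Nusap1 at -0.33 among them. Scaling to the 75th percentile changed the signs of 2. Of all genes called, 3.97% were lower in others, 37.7% after quantile normalization and 43.1% with the 75th percentile. Markers of other cells were also higher in others than in old IEL CD4+: 9 of 13 epithelial markers were over 2-fold higher, at a median of 1.48, with Reg3b at 1052 against 15.1 and Krt8 at 375 against 9.21. Of 4 myeloid markers detected on both arrays 2 were over 2-fold higher, Lyz2 at 711 against 27.6 and Cd68 at 102 against 50.3, and Cd8b1 stood at 554 against 231. Their part in the result was not tested.

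For cd27cd28 against old IEL CD4+ the difference was mostly that of all genes. Here 7 of 11 members were called higher, where 9.70% of 4528 genes were, and 0 lower, where 1.28% were, but the median of 37 members at 0.95 was only 0.33 above all genes, and relative to all genes 0 members were over 2-fold higher. Without the minimum, 18 of 37 were over 2-fold higher, against 15.8% of genes. After quantile normalization, and equally with the 75th percentile, 0 members were called, and the share of lower genes among all calls went from 11.7% to 77.3% and 73.8%. The members called under the main scaling were Cdk1, Cdc20, Ube2c, Birc5, Aurkb, Nusap1 and Ncapd2, from 1.45 for Cdk1 and Cdc20 to 1.03 for Nusap1. Signs changed for 10 of the 37 members after quantile normalization, for 7 with the 75th percentile and for 7 with the normexp correction. Under normexp Nusap1 stood at -0.17 and 1 of 4 members was called higher, where 431 of 1484 genes were. Cd8b1 was called higher here as well, at 1.40.

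Set against each other, cd27cd28 had the lower mitosis signals on the scale used here, which the normexp correction did not keep. Of 15 members with a signal over 100, 3 were called lower than in others, Ccna2 at -1.24, Depdc1a at -1.19 and Nusap1 at -1.03, where 2.68% of 4665 genes were called lower, and 0 were called higher, where 0.472% were. The median of 41 members was -0.57 with all genes at 0.08, and 37 of the 41 were below 0. With the normexp correction 14 of the 41 signs changed, Nusap1 stood at 0.16 and the median was -0.061. Of 4 members with enough signal 0 were then called, where 98 of 1521 genes were lower and 174 higher. A 3-fold threshold also left 0 called, and adding 16 before the log2 left 1. Without the minimum, 6 of the 41 were over 2-fold lower, against 3.02% of genes. Bub1 had the widest difference at -2.09, from 3.76 to 16, under the signal minimum. Markers of other cells also differed between these arrays. Of the 13 epithelial markers, all detected on both arrays, 6 were over 100 on either array and 3 of these were called lower in cd27cd28, with Reg3b at 26.9 against 1052, Krt8 at 6.89 against 375 and Krt19 at 12 against 232. Of 4 myeloid markers detected on both arrays, Lyz2, a lysozyme, was at 12.2 in cd27cd28 and 711 in others, while Cd68 was at 89.2 and 102 and Csf1r at 72.6 and 61.6. Their part in the signals of the mitosis genes was not tested.

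Across the 6 arrays the order of the members was much the same. Of the 42 members with a probe, 36 had their highest signal in young IEL, where 5.98% of 5083 genes with a signal over 100 did. That minimum was not set for the members, so the 2 shares are not fully alike. The exceptions were Ttk and Prc1, highest in others, Aurkb and Kif23, highest in cd27cd28, Cenpf in old SP and Smc4 in young SP. Of 34 members detected on all arrays, 29 ran from young IEL through others and cd27cd28 down to old IEL CD4+, an order held by 3.58% of 13538 genes, and in 23 of them both SP arrays were lower still, against 0.657% of genes. The 5 that broke the order were Ube2c, Aurkb, Cenpa, Cenpf and Kif23. Smc2 is counted as in order by the mean of its probes, though neither probe alone held it, and 1 of the probes of Ncapg did not hold it. The order was held by 24 of 34 members after quantile normalization, 23 with the 75th percentile and 15 with the normexp correction, against 4.12%, 3.59% and 4.89% of genes, settings that were applied to it after the data had been seen. With both SP arrays lower still, these counts were 22, 21 and 6 of 34, against 0.982%, 0.835% and 0.362% of genes. Young IEL was the brightest array for 39, 38 and 31 of 42 members, with no share of all genes read. Relative to young IEL, the median member stood at -0.63 in others, -1.32 in cd27cd28, -2.28 in old IEL CD4+, -2.88 in young SP and -3.01 in old SP, where the median of all genes stood at 0.43, 0.53, -0.09, 0.27 and 0.36. This order was read from the values themselves, and without replicates it cannot be said which neighbouring arrays differ beyond their spread.

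**Figure D3:**
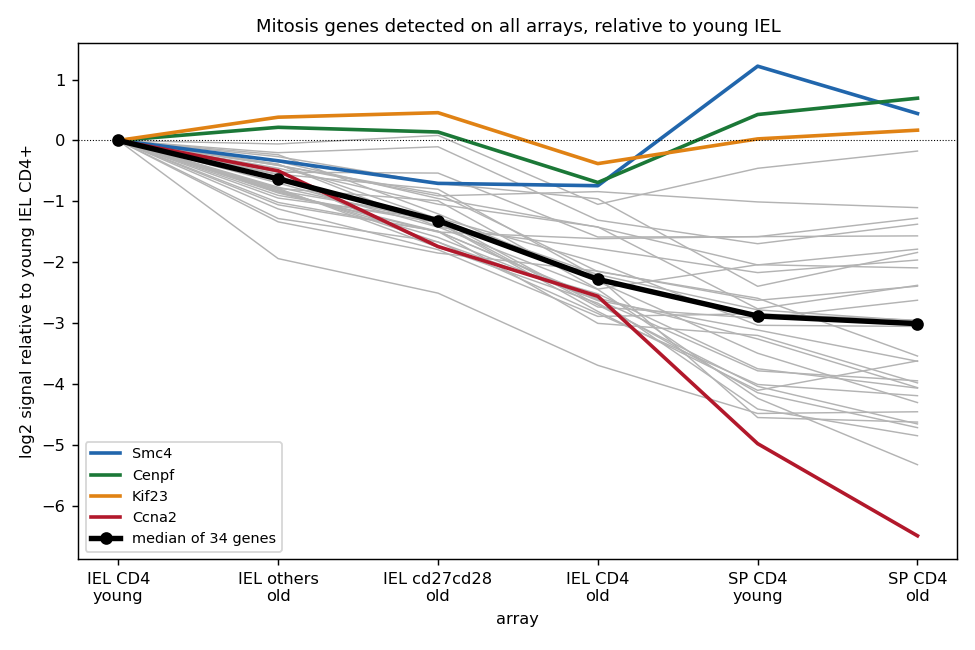
The vertical axis gives the log2 signal of the 34 mitosis genes detected on all arrays, relative to young IEL CD4+ T cells, on each array along the horizontal axis (1 array per group). The black line is the median, which goes from -0.63 in others to -3.01 in old SP, and the coloured lines mark Ccna2 and the members Smc4, Cenpf and Kif23 that depart from it.

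The genes of other cell cycle steps were read from further lists. Of 54 other mitosis genes with a probe, 13 had a signal over 100 in IEL and 6 of these were called lower with age, where 3.85% of all genes were, with a median of -0.96 over 48 genes. The widest were Cenpm, a centromere protein, from 159.8 to 28.6, Cdca5, the cohesion factor sororin, from 394 to 76.7, Fbxo5, the APC/C inhibitor EMI1, from 174 to 61.0, and Knstrn, a kinetochore protein, from 106 to 42.3. Of 28 S phase genes with a probe, 12 of 19 over 100 were called lower, against the same 3.85%, with a median of -1.40 over 27 genes, all of them below 0. Tk1, the thymidine kinase, went from 201 to 33.0, Mcm10, a replication initiation factor, from 148 to 27.6, Rrm2, a ribonucleotide reductase subunit, from 119 to 25.7, and Cdc45, a part of the replicative helicase, from 259.9 to 65.6. In SP, 0 of 11 of the former and 0 of 11 of the latter were called in either direction with age, where 0.760% of all genes were called lower and 4.31% higher, so a count of 0 among 11 is near the share of all genes.

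Few regulators of the cycle had enough signal for a call, and their counts are to be read against the 3.85% of all genes called lower and 2.47% called higher, to which a count of 0 among so few genes is near. Of 7 cell cycle transcription regulators over 100, 0 were called in IEL with age in either direction, with a median of -0.14 over 18 genes, and the widest of the 7 was Rbbp4, a histone-binding subunit of MuvB, at -0.96. Under the minimum, Tfdp1, the partner of E2F factors, stood at -1.499 and E2f1, which drives entry into S phase, at -1.08. Of the 12 constitutive APC/C subunits, 0 of the 7 over 100 were called, with a median of -0.43. Of 7 CDK inhibitors with a probe, 2 were over 100 in IEL and 0 were called, with Cdkn1a, which encodes p21, at 225 in young and 135 in old IEL. Without the minimum, 2 of 6 CDK inhibitors were over 2-fold higher in old IEL, where 363 of 13753 genes were. In old SP 3 of 7 were, where 621 of 15052 genes were, and 0 were over 2-fold lower at either site. Cdkn2b, which encodes p15, went from 10.1 to 60.4 in IEL and from 4.67 to 38.9 in SP. Cdkn2a went from 2.36 to 6.80 in IEL. In SP, Cdkn1a went from 5.53 to 21.2 and Cdkn1c from 2.69 to 7.30. All these signals were under the minimum, and the genes are named after their values were seen.

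**Figure D4:**
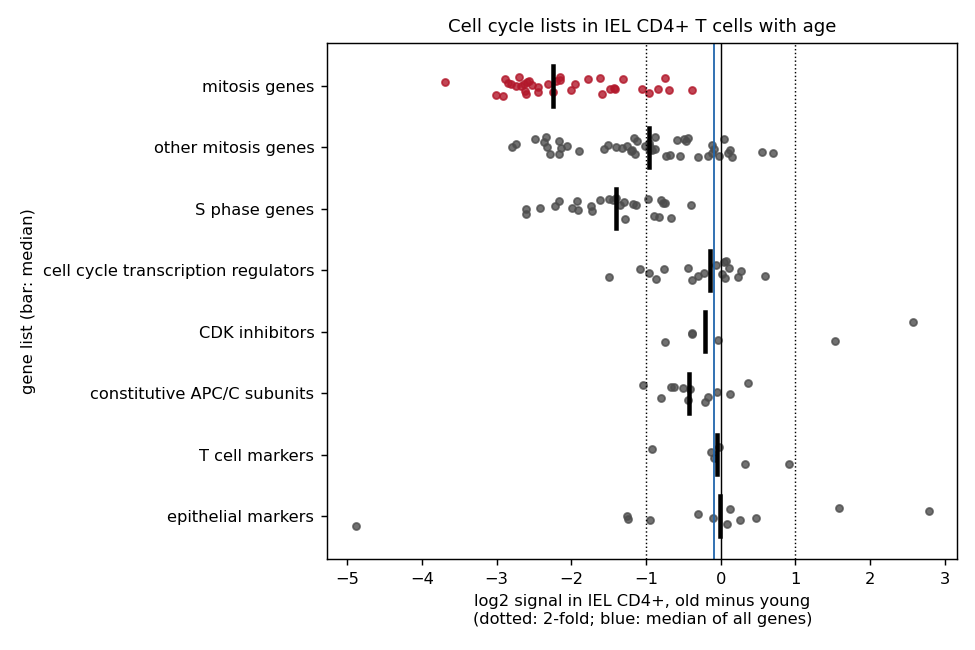
Each point is a gene of the list on the vertical axis and the horizontal axis gives its log2 signal in old minus young IEL CD4+ T cells, with the list's median as a bar, dotted lines at 2-fold and the median of all genes in blue. The medians are -2.25 for the mitosis genes, -0.96 for other mitosis genes and -1.40 for S phase genes, while transcription regulators lie at -0.14.

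The genes outside the set with the most similar profile were found among 4736 genes detected on all arrays with a signal over 100 on at least 1, by the Euclidean distance of their centred log2 signals from the mean of the 34 members over 6 arrays. Of the nearest 10, H2ac22, H2ac24, H2ac15, H2ac10, H2ac20 and H2ac11 encode histone H2A, whose RNA is made in S phase, at distances from 0.390 to 0.518. These histone genes are near-identical copies whose probes may read one another, so their values are uncertain and are not independent. The others were Cenpm at 0.470, Cdc45 at 0.475, Asf1b, a histone chaperone, at 0.535, and Chek1, the replication checkpoint kinase, at 0.727. H2ac22 had a signal of 8121 in young IEL, 1958 in old IEL CD4+, 1112 in young SP, 1163 in old SP, 4585 in cd27cd28 and 6036 in others. Asf1b stood at 574, 188, 103, 124, 349 and 441 on the same arrays. Among the members themselves, Bub1b at 0.234 and Mki67 at 0.307 lay nearest to the mean and Smc4 at 3.75 and Ccna2 at 3.31 farthest from it.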

How the data were processed

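Arrays were Toray 3D-Gene mouse oligonucleotide 24k slides. The deposited scanner values are intensity of spot medians and of local background, and the value table of the authors holds intensity scaled to a median of 25 per array, on a linear scale. These values were recovered from the scanner intensities: the mean of 384 blank spots, less 5% at each end, was subtracted, probes more than 2 SD above it were taken as detected, and each array was scaled to a median of 25 over detected probes. The recovered values had a Pearson r of 1 with the authors' table on every array. The study's pipeline beyond its scaling and thresholds is not given in the sources used here. A single symbol was paired with 20690 probes, and 2783 had none. Probes of a gene were averaged as log2 over those detected on both arrays compared (Python 3.11.15, numpy 2.4.6, pandas 2.3.3), and a call needed over 2-fold and a signal over 100, the study's thresholds. A gene detected on 1 array gave a bound against the lowest detected signal of the other. Quantile normalization, 75th percentile scaling, normexp (limma 3.58.1, R 4.3.3, offset 50), 16 added before the log2, other thresholds, the brightest probe, undetected probes at the lowest detected signal and the authors' table were alternatives. The number of arrays limits the precision.

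Members and lists were chosen with earlier results of these data known, and the spelling of Knstrn in its list was corrected after values had been seen. Signals on all arrays are given for up to 3 members of each role with the widest age difference in IEL and for every member not called there or not detected on an array; for further lists, up to 4 genes with the widest difference and a signal over 100; and for the 10 nearest profiles, passing over predicted genes. The orders of arrays, the promoters printed and the motifs were chosen after the values had been seen. B cell, erythroid, stromal and NK cell lists were also read and held at most 1 gene over 100 on any array, Cd79b at 124 being the highest. The scripts were tested on simulated data.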

Additional observations from a re-analysis of the deposited data

Results flagged for a closer look

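Kif11, Racgap1 and Ect2 went in opposite directions with age in IEL and SP CD4+ T cells by more than 0.360. This limit, set after the values had been seen, is 2 SD of a difference from the mean spot error of the positive controls. Their spot SDs ran from 0.089 on others to 0.198 on young IEL. It does not measure the spread of dim probes such as these in SP, where detection began at 2.44 in young and 2.13 in old mice. Kif11 was lower in old IEL at -2.81 and higher in old SP at 0.48, a difference of -3.29 between the sites. Racgap1 was at -0.96 in IEL and 0.56 in SP, a difference of -1.51, but with the normexp correction its value in IEL turned to 0.052 and the directions no longer opposed. Ect2 was at -1.42 in IEL and 0.39 in SP, a difference of -1.81. The difference was not tested, since each group has 1 array, and in SP all 3 genes had low signals (Kif11 from 4.17 to 5.84, Racgap1 from 12 to 17.7 and Ect2 from 12.6 to 16.5). With the normexp correction their SP values were 0.033 for Kif11, 0.033 for Racgap1 and 0.022 for Ect2, all inside that limit.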

How the results depend on the processing

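No paired analysis was possible because each group has 1 array, and for the same reason no array could be left out. The authors' value table, the brightest probe per gene and undetected probes at the lowest detected signal left all 21 counts and medians of the 7 comparisons within their limits. With the normexp correction, 8 members were called lower in IEL with age, of 8 with enough signal, at a median of -0.76, where 456 of 1490 genes were. Under it, young IEL against SP gave 6 of 8 higher and 0 lower at a median of 0.81, where 500 and 174 of 1537 genes were called. Old IEL against SP gave 0 of 2 higher at 0.024, where 242 of 1304 genes were. For cd27cd28 against others, 0 of 4 were lower at -0.061, where 98 of 1521 genes were. Against old IEL CD4+, 1 of 4 was higher in cd27cd28 at 0.14 and 1 of 4 in others at 0.25. There, 431 of 1484 and 272 of 1359 genes were called higher. Values of called members that changed direction, all with normexp, were Aurkb in IEL with age at 0.30, Nusap1 in cd27cd28 against others at 0.16 and against old IEL CD4+ at -0.17, and, in others against old IEL CD4+, Ccnb2 at -0.035, Birc5 at -0.11 and Nusap1 at -0.33. Over all measured members, called or not, normexp changed 3 of 37 signs in IEL and 15 of 35 in SP with age, 2 of 36 in young and 12 of 34 in old IEL against SP, 14 of 41 in cd27cd28 against others, and 7 and 6 of 37 in cd27cd28 and others against old IEL CD4+. Quantile normalization changed 0, 2, 1, 4, 2, 10 and 0 in the same order, and the 75th percentile 0, 2, 1, 4, 1, 7 and 2. The normexp values include its offset of 50, and the causes of these changes were not tested.

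After quantile normalization the medians were 3.07 for young IEL against SP and 1.34 for old IEL against SP. For cd27cd28 against old IEL CD4+ the median was 0.40 with 0 of 11 higher, where 37 of 4410 genes were. For others against old IEL CD4+ it was 0.94 with 7 of 14 higher, where 43 of 4331 genes were. With the 75th percentile the median was 1.22 for old IEL against SP with 1 of 8 lower, where 259 of 4551 genes were. It was 0.48 for cd27cd28 against old IEL CD4+ with 0 of 11 higher, where 44 of 4420 genes were. For others against old IEL CD4+ it was 1.13 with 7 of 14 higher, where 41 of 4332 genes were. With 16 added before the log2, the medians were -1.47 in IEL with age, 1.84 for young and 0.36 for old IEL against SP, and 0.59 for cd27cd28 and 0.93 for others against old IEL CD4+. For cd27cd28 against others the median was -0.35 with 1 of 15 lower, where 110 of 4665 genes were.

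Without the signal minimum, 32 members were lower in IEL with age and 2 in SP, 32 were higher in young and 13 in old IEL against SP, 6 were lower in cd27cd28 than in others, and 18 in cd27cd28 and 28 in others were higher than in old IEL CD4+. The shares of all genes are given with each comparison above. With a minimum of 200, 10 of 12 were lower in IEL with age, where 96 of 2677 genes were. Young IEL against SP gave 10 of 12 higher, where 254 of 2938 genes were. In old IEL against SP 0 of 4 were higher and 1 lower, where 148 and 339 of 2961 genes were. Against old IEL CD4+, 4 of 6 were higher in cd27cd28 and 5 of 8 in others, where 306 of 3022 and 78 of 2946 genes were. With a 3-fold threshold, 0 were lower in IEL than in SP at either age, where 138 of 4458 genes were in young and 166 of 4513 in old mice. In cd27cd28, 0 were lower than in others, where 76 of 4665 genes were, and 0 higher than in old IEL CD4+, where 29 of 4528 were. These counts of 0 are near the shares of all genes. Signal over background limits the dim members most, and 20 of the 42 had a signal over 100 on young IEL.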
